A study of Homo sapiens with 24 samples.

Results

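Loss of the DNA glycosylases OGG1 and MUTYH was examined for non-additivity, that is, for a distribution of 8-oxo-7,8-dihydroguanine (OG) in cells lacking both enzymes that the separate losses did not add up to. The comparison took all 12 OG columns of the table, out of 24 samples of the sequencing experiment, as a 2 by 2 design in which OGG1 and MUTYH were each present or lost. The members were 2730530 of the 2835235 bins of 1 kb, after leaving out 74928 bins of chromosome 6 between 95 and 170 Mb and 29777 further bins at 0 in every column. They were also combined into 27364 windows of 100 kb and into the bodies of 16985 of 19962 protein-coding genes.

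OG-seq attaches biotin to OG bases in fragmented DNA, enriches the labelled fragments on streptavidin and sequences them next to untreated input DNA. It was run on untreated cultures of HAP1, a near-haploid human line derived from a leukemia. The 4 genotypes were WT, MUTYH-/, OGG1-/ and DKO, the last lacking both glycosylases, and the knockouts carried CRISPR-Cas9 insertions or deletions. Each genotype had 3 OG libraries, 2 from one clone and 1 from another, and all columns shared the culture and library protocols. The columns are called WT1 to WT3, MU1 to MU3, OG1 to OG3 and DKO1 to DKO3 here, and these names do not tie them to clones or experiments. The p-values therefore measure the spread between columns, part of which may be technical or clonal. The fits took the 3 columns of a genotype as independent, although 2 of them came from the same clone. Their p-values may be too small for that reason. OGG1 clone 1 has a deletion of 5 bp and OGG1 clone 2 a deletion of 8 bp, and both DKO clones descend from OGG1 clone 2. Any change private to that lineage and the effect of losing both enzymes cannot be told apart in DKO.

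OGG1 starts base excision repair by cutting out OG that faces cytosine. When replication has placed adenine opposite OG, MUTYH removes that adenine, which gives OGG1 another chance to act on the oxidized base. The enzymes therefore work on successive states of the same lesion, and additivity asks whether the OG signal of a region without both equals what the separate losses predict. The prediction used here, the additive expectation, was MUTYH-/ plus OGG1-/ minus WT, and the interaction was DKO minus that expectation.

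The designed OGG1 guide is shown because its site was edited in OGG1-/ and DKO cells alike, with the PAM in capitals.
OGG1 guide: gtacgatgccccatgcgcctGGG
It matched the genome (GRCh38) once, on the minus strand at chr3:9750311-9750330, within coding exon 1 of OGG1. A deletion of a few bases leaves reads in a 1 kb bin, so the values do not check the genotype labels. In the bin that holds the site, chr3:9750001-9751000, the scaled values, meaning values divided by the column mean, were 0.121, 1.94 and 1.27 in WT and 3.33, 3.75 and 4.04 in DKO. MUTYH-/ had 1.66, 2.71 and 3.16, and OGG1-/ 1.43, 1.65 and 1.94. All DKO columns lay above the other columns. The interaction of 0.63 ± 1.69 (SE) was smaller than its error (limma adjusted p = 0.998). No guide sequence for MUTYH was used here.

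The deposited value of a bin was a score: OG reads minus scaled input reads. Whole reads were recovered from these scores, and the OG reads ranged from 59601849 in WT1 to 113915679 in DKO2, or 21.0 to 40.2 reads per bin. Input reads ranged from 78621690 in MU2 to 101608128 in OG1. All 12 totals differed. WT had the fewest OG reads per bin, 24.8 ± 4.96 (SD, n = 3), and DKO the most, 37.4 ± 3.47, with MUTYH-/ at 31.7 ± 6.25 and OGG1-/ at 35.2 ± 4.0. The part of this order in the results was not tested.

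The overall level was compared on the unscaled score, because division by the column mean sets its interaction to 0. The mean score per bin was 7.04, 7.38 and 8.34 in WT and 8.34, 9.27 and 9.91 in DKO, and 9.64, 7.80 and 8.26 in MUTYH-/ and 9.12, 8.84 and 9.71 in OGG1-/. The knockout columns overlapped with each other, and WT3 overlapped with them. The group means were 7.59 ± 0.673 for WT (SD, n = 3), 8.57 ± 0.960 for MUTYH-/, 9.23 ± 0.445 for OGG1-/ and 9.17 ± 0.789 for DKO. DKO thus had about the level of OGG1-/, while the additive expectation was 10.2. The interaction of -1.03 ± 0.855 (SE) did not pass the two-sided exact permutation test over all assignments of columns (p = 0.355), whose smallest possible p is 0.00216. Under the null of that test all columns are exchangeable, so differences between genotypes also widen its reference. Both the order of the genotypes and the sign of the interaction depended on the scale. Per OG read, the score was highest in WT, at 0.311 ± 0.0320 (SD, n = 3), and lowest in DKO, at 0.246 ± 0.0136, with MUTYH-/ at 0.273 ± 0.0221 and OGG1-/ at 0.263 ± 0.0186. On that scale, the interaction was 0.0201 ± 0.0261 (exact permutation p = 0.593).

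**Figure D1:**
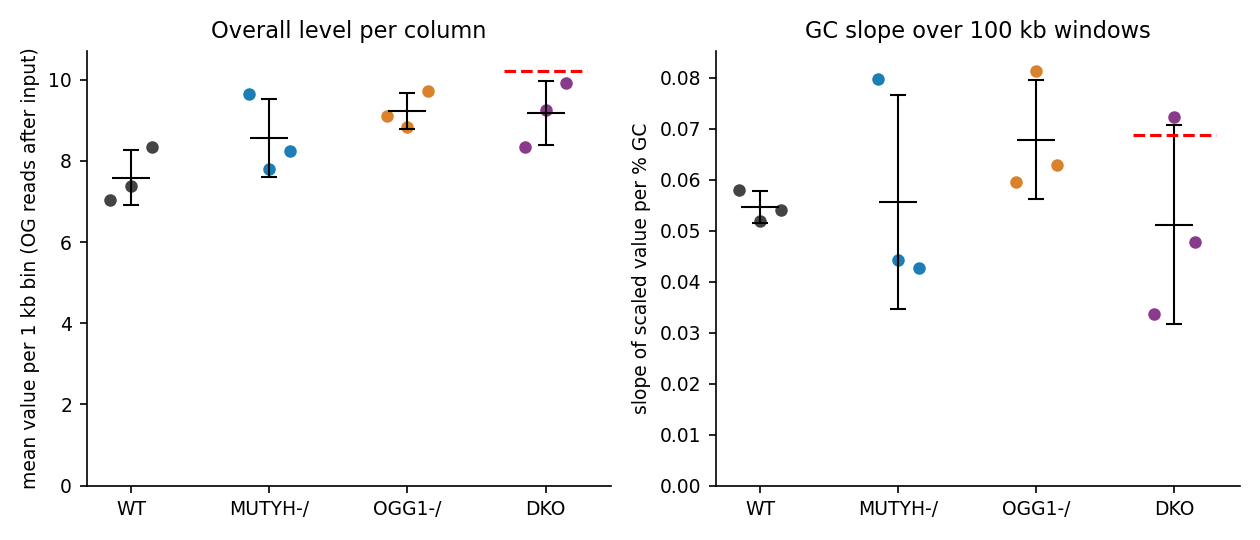
Mean score per bin and GC slope of the 12 columns by genotype. Points are columns, bars are the mean ± SD of 3 columns, and the red dashed line is the additive expectation, which lies at 10.2 for the mean score and at 0.0688 scaled units per percent GC for the slope, in both cases above the DKO mean.

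No single bin was called non-additive on the scaled values. None of the 2730530 bins (0.0%) passed an adjusted p under 0.05 with limma, a linear model with moderated variances, while 13 passed on a log2 scale and 1 without the variance trend. At an unadjusted p under 0.05, 68182 bins (2.5%) were above the additive expectation and 67772 (2.48%) below it, together 4.98%. WT and DKO both lay above the single knockouts without overlap in 2968 bins (0.109%), and below them in 3069 bins (0.112%). The median SE of a bin was 1.47 scaled units. In simulated data of these bins, an interaction of 12 units was found in 49.5% of changed bins and one of 8 units in 1.5%.

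The bins with the smallest p show the shape of the strongest candidates. In the bin chr8:71397001-71398000, in an intron of EYA1, a transcriptional coactivator and phosphatase of organ development, the scaled values were 1.97, 2.78 and 3.70 in WT and 2.0, 1.96 and 1.88 in DKO. They were -1.22, -0.50 and -1.46 in MUTYH-/ and -2.65, -0.53 and -1.26 in OGG1-/. WT and DKO were above and the single knockouts below 0, with an interaction of 7.30 ± 1.31 and an adjusted p of 0.859. The opposite order was seen at chr1:27483001-27484000 in WASF2, which encodes an actin regulator of the WAVE family. There, MUTYH-/ had 4.41, 3.16 and 3.18 and OGG1-/ 1.79, 2.89 and 1.96, against -1.24, -1.47 and -1.04 in WT and -0.56, -2.11 and 0.63 in DKO (interaction -7.73 ± 1.41, adjusted p = 0.859). Mean input reads, in the order WT, MUTYH-/, OGG1-/ and DKO, were 24, 36.7, 48.7 and 36 at EYA1. Mean OG reads there were 34.3, 18.7, 22.3 and 47. At WASF2, input was 54.3, 39.3, 46.3 and 56.7, and OG reads were 20, 62, 55 and 40. The part of subtracted input in these scores was not tested. Among the other named bins, those above expectation lay in SPAG16 and in 3 places without a protein-coding gene on chromosomes 15 and 3, and those below lay in ENAM, LMTK2 and FBXL2. The bins on chromosome 15 were rich in input, with 42 to 104 reads per column. They lie in the segment of that chromosome known to be duplicated in HAP1. The column means were 27.7 to 35.8 input reads per bin. The adjusted p of the other named bins ranged from 0.859 to 0.991, so no bin is a call.

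Windows of 100 kb gave a median SE of 0.176 scaled units. In simulated data of the windows, with independent normal errors, interactions of 1 unit were found in 77% of cases, beside 6 false calls. None of 0.5 units were found. Of 27364 windows, 3 were called (0.011%), 1 above and 2 below the additive expectation. At an unadjusted p under 0.05, 758 windows (2.77%) were above and 643 (2.35%) below, together 5.12%. Without scaling of the columns, 3 windows were called and this split was 171 above and 1286 below. WT and DKO lay above both single knockouts in 39 windows (0.143%) and below both in 26 (0.095%). The median interaction was 0.00719, 98.2% of the windows were within 0.5 units of 0, and the range from the lowest to the highest percentile was -0.549 to 0.415. Moderation gave the trend over windows a weight of 92.3 degrees of freedom against 8 from the columns, so a window's own spread counted little. Without the trend, no window passed, with 564 above and 858 below at an unadjusted p under 0.05.

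**Figure D2:**
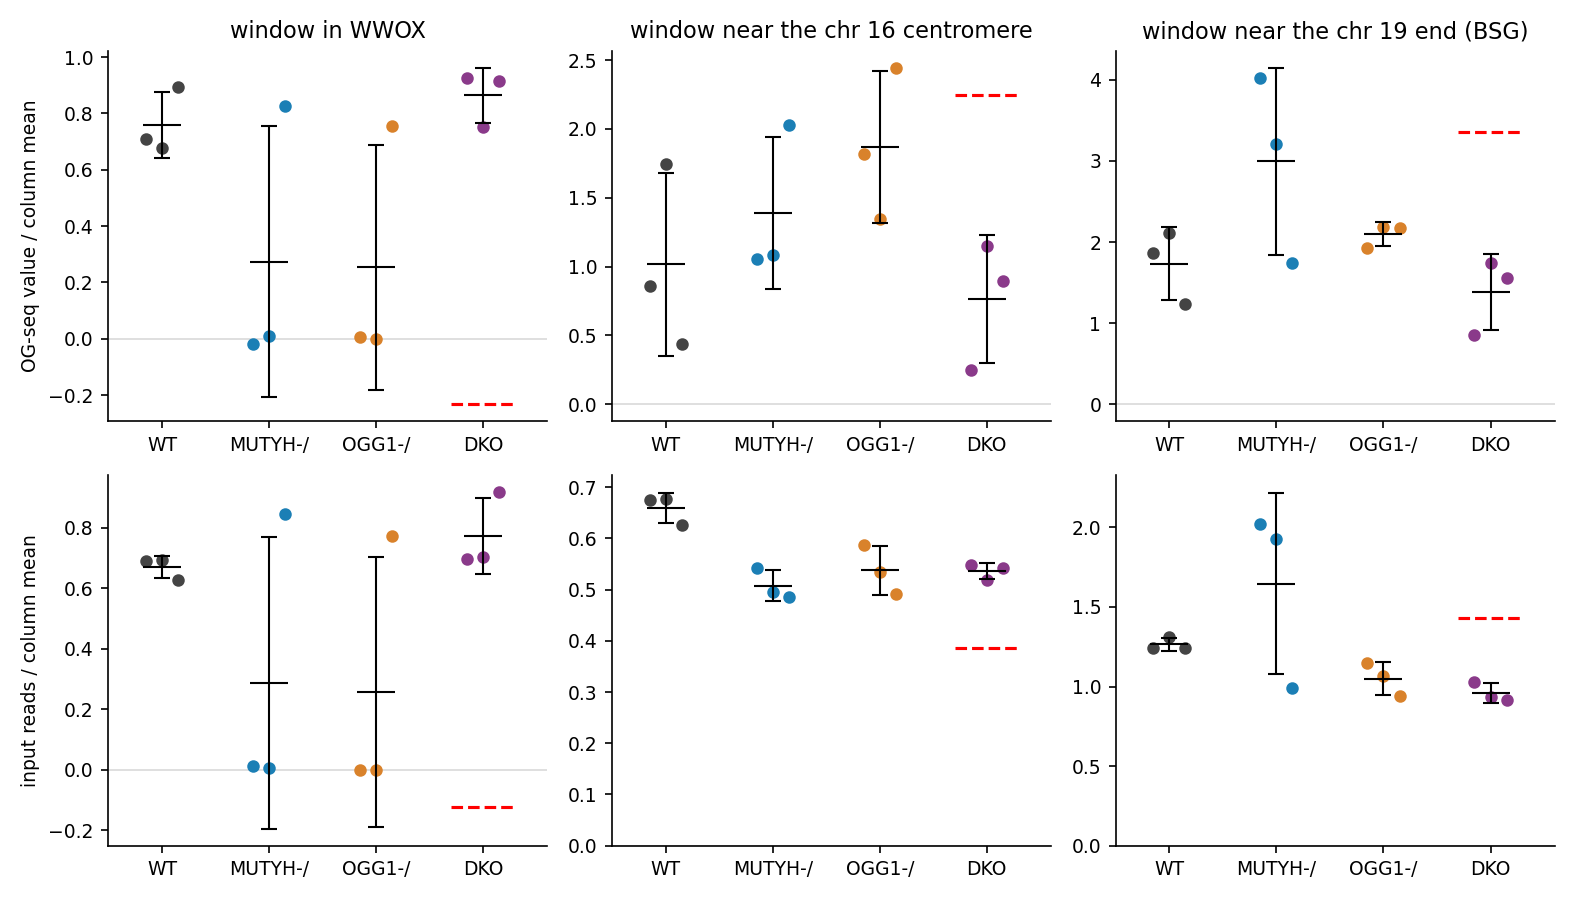
Scaled values in the 3 called windows (upper panels: WWOX, TP53TG3E and TP53TG3B near the chromosome 16 centromere, and BSG and its neighbours) and scaled input reads of the same windows (lower panels), by genotype. Points are columns, bars are mean ± SD of 3 columns and red dashed lines are the additive expectation; in the WWOX window, MU1, MU2, OG1 and OG2 are near 0 in both rows, and in the window near the end of chromosome 19 MU1 and MU2 are at 4.03 and 3.21 with input at 2.02 and 1.93.

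The window above expectation was chr16:78600001-78700000, inside WWOX, a very long gene for a WW-domain oxidoreductase that spans a common fragile site. The scaled values were 0.71, 0.68 and 0.89 in WT and 0.93, 0.75 and 0.92 in DKO. They were -0.02, 0.01 and 0.83 in MUTYH-/ and 0.01, 0.00 and 0.76 in OGG1-/. Thus 2 columns of each single knockout had almost no signal, and the other column was within the WT range. The interaction was 1.1 ± 0.21 (limma adjusted p = 0.0129, exact permutation p = 0.0238 unadjusted), with an SE of 0.384 from the window's own columns. The additive expectation of -0.232 was below 0, against a DKO mean of 0.864. The call was lost without WT3, MU1, MU2, OG1, OG2, DKO1 or DKO3 (interactions from 0.951 to 1.07), and kept without any of the others. It was also lost when the grid of windows was shifted, where no window above expectation was called, and on a log2 scale or without the variance trend.

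Input DNA of the WWOX window was low in the same columns. Scaled input was 0.0119 and 0.00649 in MU1 and MU2 and 0.000558 and 0.000580 in OG1 and OG2, against 0.628 to 0.918 in the other columns. The input interaction was 0.897 ± 0.210 (limma adjusted p = 0.0619). On the log2 ratio of OG to input reads, the interaction was -0.03 ± 0.18 (SE, limma adjusted p = 0.997). The ratios of MU1, MU2, OG1 and OG2, from -1.39 to 1.43, rest on very few reads, so this value carries little information. OG values were near 0 in the same columns as input.

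Along WWOX (ENSG00000186153.19, chr16:78099400-79212667, 1113 kb), runs of 5 kb blocks with under 0.1 times the column's mean input were found in 10 columns. There were 15 runs of 20 to 300 kb, and none in WT1 or WT2. WT3 had 1 run of 25 kb (chr16:78725001-78750000). MU1 and MU2 had the same run of 300 kb (chr16:78515001-78815000), while MU3 had runs of 20 and 50 kb closer to the gene start. The lengths in MU3 hang on the cut-off of 0.1. In steps of 20 kb, its scaled input stayed at 0.0547 to 0.108 from -230 to -150 kb of the centre of the called window. OG1 and OG2 shared a run of 205 kb (chr16:78505001-78710000). OG3 and all 3 DKO columns had the same pair of runs, of 100 kb (chr16:78490001-78590000) and 75 kb (chr16:78965001-79040000). The runs of MU1, MU2, OG1 and OG2 covered the called window, and those of OG3 and DKO lay on either side of it. Libraries of the same clone, and OGG1-/ and DKO libraries of the same lineage, are among these columns. Whether the shared runs follow clone or lineage was not tested.

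**Figure D3:**
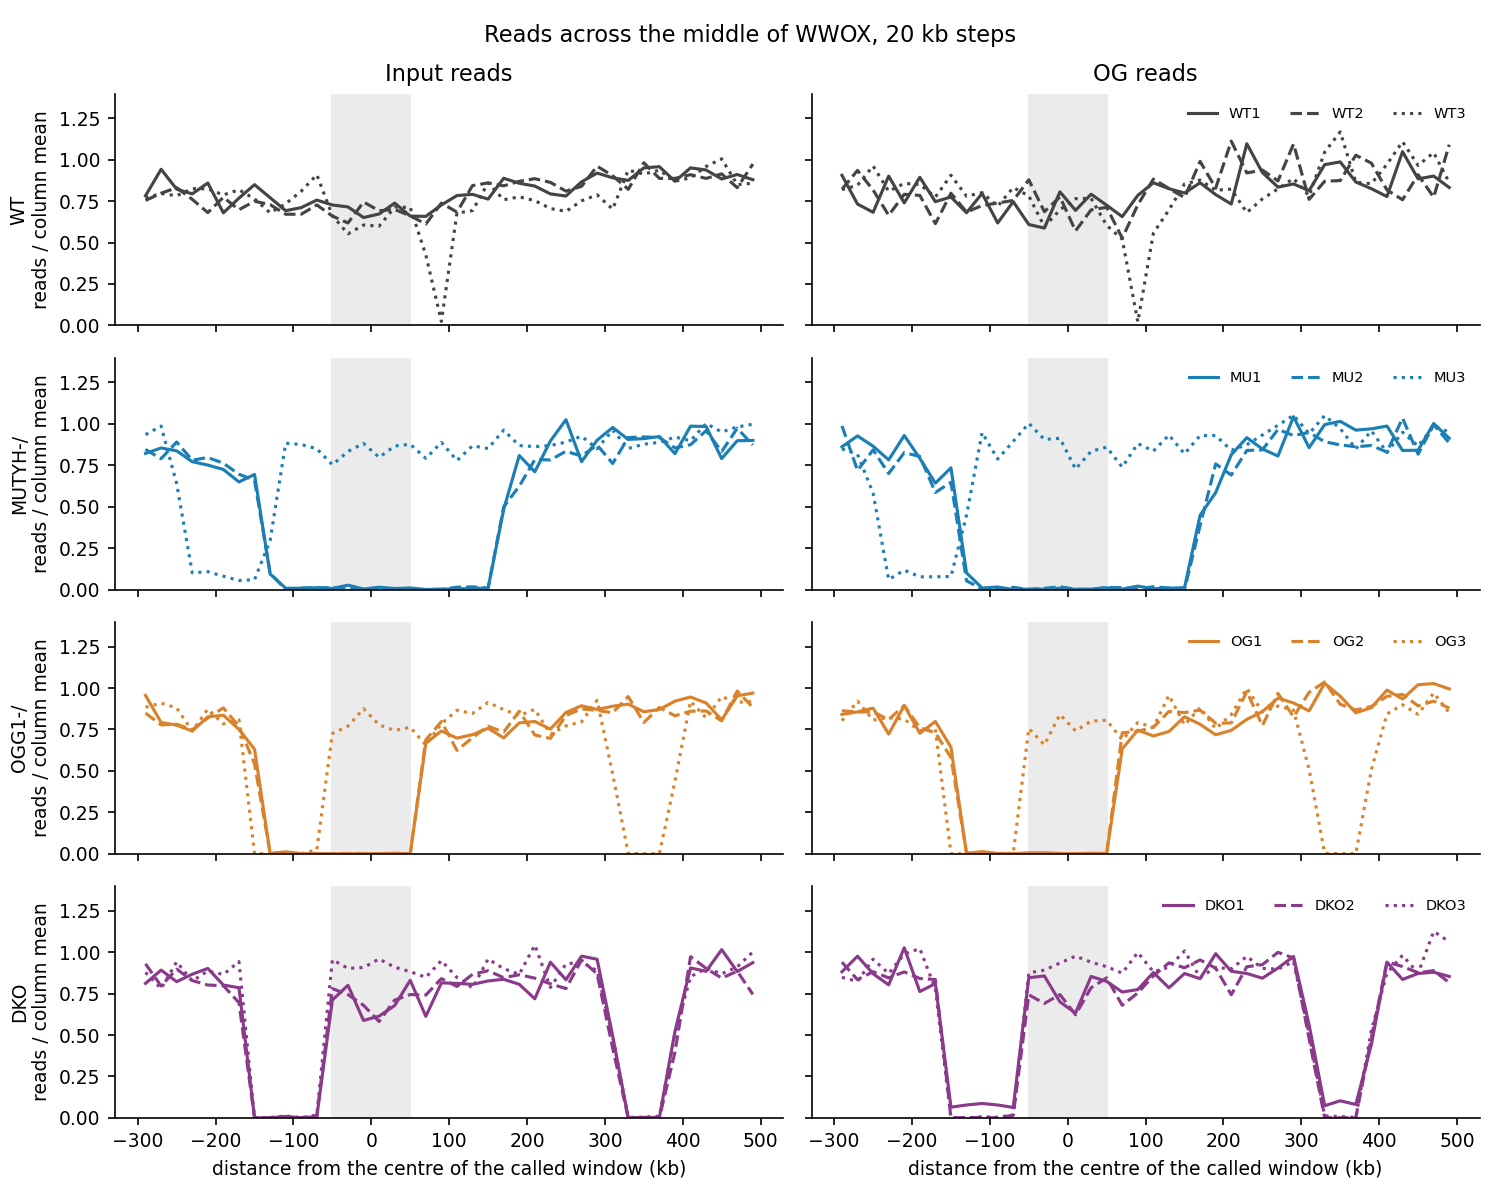
Input reads (left) and OG reads (right), each divided by the column mean, in steps of 20 kb across the middle of WWOX against the distance in kb from the centre of the called window, which is shaded; rows are genotypes and line styles are columns. Reads fall to near 0 over 300 kb in MU1 and MU2, over 205 kb in OG1 and OG2, and over the same 2 stretches of 100 and 75 kb in OG3 and the DKO columns, where OG reads of DKO1 stay above 0. In MU3, input is low, at 0.0547 to 0.108, in the steps from -230 to -150 kb.

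OG reads followed input in most of these runs, with exceptions. DKO1 had 11 input reads and 247 OG reads in its run of 100 kb, so that input was 0.32% and OG was 7.37% of the column mean. In its run of 75 kb it had 3 input reads and 204 OG reads. DKO2 had 12 input reads and 16 OG reads in the first of these runs, and DKO3 had 22 and 21. In MU3, input in the runs was 5.54% and 6.76% of the column mean and OG was 7.69% and 10.2%. Over the whole WWOX body the interaction was 0.26 ± 0.12 (limma adjusted p = 0.935), so the gene as a unit was no call.

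The second window, below expectation, was chr16:33300001-33400000, which overlaps TP53TG3E and TP53TG3B, near-identical copies whose reads may be assigned to either. Its scaled values were 0.86, 1.74 and 0.44 in WT and 0.25, 1.15 and 0.90 in DKO, and 1.06, 1.08 and 2.03 in MUTYH-/ and 1.82, 1.35 and 2.45 in OGG1-/. The groups overlapped. The interaction was -1.48 ± 0.27 (limma adjusted p = 0.00863, exact permutation p = 0.0433 unadjusted), with an SE of 0.651 from its own columns. It rested on 4 adjacent bins, chr16:33336001-33340000, which overlap no protein-coding gene and had a mean scaled value above 5, as had 475 bins in all. Their mean was 1.84, 17.8 and -1.39 in WT and -9.33, 16.2 and 7.36 in DKO, and 11.4, 4.46 and 32.1 in MUTYH-/ and 27.2, 17.5 and 40.1 in OGG1-/. The columns of each genotype spread over wide ranges there. Without these bins, an alternative chosen after seeing the data, the window's interaction was -0.0417. It also lost its call without WT3 (-1.19), OG3 (-1.19) or DKO1 (-1.22), and it was -0.25 on the log2 ratio of OG to input reads (limma adjusted p = 0.981).

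The third window, chr19:500001-600000, held MADCAM1 (an addressin for lymphocyte homing), TPGS1 (a tubulin polyglutamylase subunit), CDC34 (a ubiquitin-conjugating enzyme), GZMM (a granzyme), BSG (basigin) and HCN2 (a pacemaker channel). The scaled values were 1.86, 2.12 and 1.23 in WT and 0.86, 1.74 and 1.56 in DKO, and 4.03, 3.21 and 1.75 in MUTYH-/ and 1.93, 2.19 and 2.18 in OGG1-/. MU1 and MU2 stood above all other columns, and MU3 lay among them. The interaction was -1.97 ± 0.39 (limma adjusted p = 0.0134, exact permutation p = 0.0195 unadjusted), with an SE of 0.772 from its own columns, and the additive expectation of 3.36 compared with a DKO mean of 1.39. The call was lost without WT3, MU1, MU2, OG2, OG3, DKO1 or DKO3 (interactions from -2.06 to -1.45). Scaled input was 2.02 and 1.93 in MU1 and MU2, and 0.915 to 1.31 in the other columns. The same was seen in the neighbouring windows from chr19:300001 to chr19:1000000, where MU1 and MU2 had input of 1.80 to 2.52, and it ended in the next window, at 1.08 and 0.986. The windows from chr19:400001 to chr19:1000000 made up 6 of the 10 windows with the smallest p below expectation (interactions from -1.97 to -1.31). In the called window, the log2 ratio of OG to input reads was 0.32 and 0.26 in MU1 and MU2, within the range of -0.06 to 0.41 of the other columns. On that ratio, the interaction was -0.32 (limma adjusted p = 0.981).

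Restricting the test to windows whose input in each column was within 1.5-fold of the median of the 12, also chosen after seeing the data, left 1 called window, that of TP53TG3E and TP53TG3B. With the ratio of OG to input reads, no window passed, with 754 above and 583 below at an unadjusted p under 0.05. The input reads themselves, tested in the same way, gave 54 called windows (0.197%), of which 18 lay on chromosome 20, all higher, and 19 on chromosome X, all lower. None of the 54 was called in the OG signal, and 6 had an unadjusted p under 0.05 there. In all 6, the interaction of the OG score, from which input is subtracted, had the opposite sign to that of input. At chr16:500001-600000, also among the named windows below expectation, it was -1.03 against 0.287 in input. The part of the subtraction in this was not tested. Of the gene bodies, 1 was called in the input reads (0.00589%).

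In some windows with even input, WT and DKO together did not overlap with the single knockouts, but the interaction missed the adjusted threshold. In chr3:133700001-133800000, with TF (transferrin, the iron carrier of plasma) and SRPRB (a subunit of the signal recognition particle receptor), WT had 1.14, 1.1 and 1.25 and DKO 0.98, 1.21 and 1.1. MUTYH-/ had 0.74, 0.93 and 0.66, and OGG1-/ 0.84, 0.86 and 0.67. Both single knockouts were below WT and DKO in every column, with an interaction of 0.69 ± 0.17 (adjusted p = 0.395) and input between 0.990 and 1.05 in all columns. The windows chr7:147600001-147700000 in CNTNAP2, a neuronal adhesion gene, and chr1:69400001-69500000, with no protein-coding gene, had the same order (interactions 0.58 and 0.55). In the reverse order, DAAM1, a formin that assembles actin, had 0.85, 1.09 and 0.89 in WT and 1.11, 0.675 and 0.757 in DKO at chr14:59100001-59200000. There, MUTYH-/ had 1.38, 1.23 and 1.32 and OGG1-/ 1.19, 1.17 and 1.20 (interaction -0.70 ± 0.18, adjusted p = 0.655). CHD7, a chromatin remodeler, also had both single knockouts above WT and DKO at chr8:60800001-60900000 (interaction -0.66 ± 0.18, adjusted p = 0.837). All of these lie within the shares of non-overlapping windows given above.

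**Figure D4:**
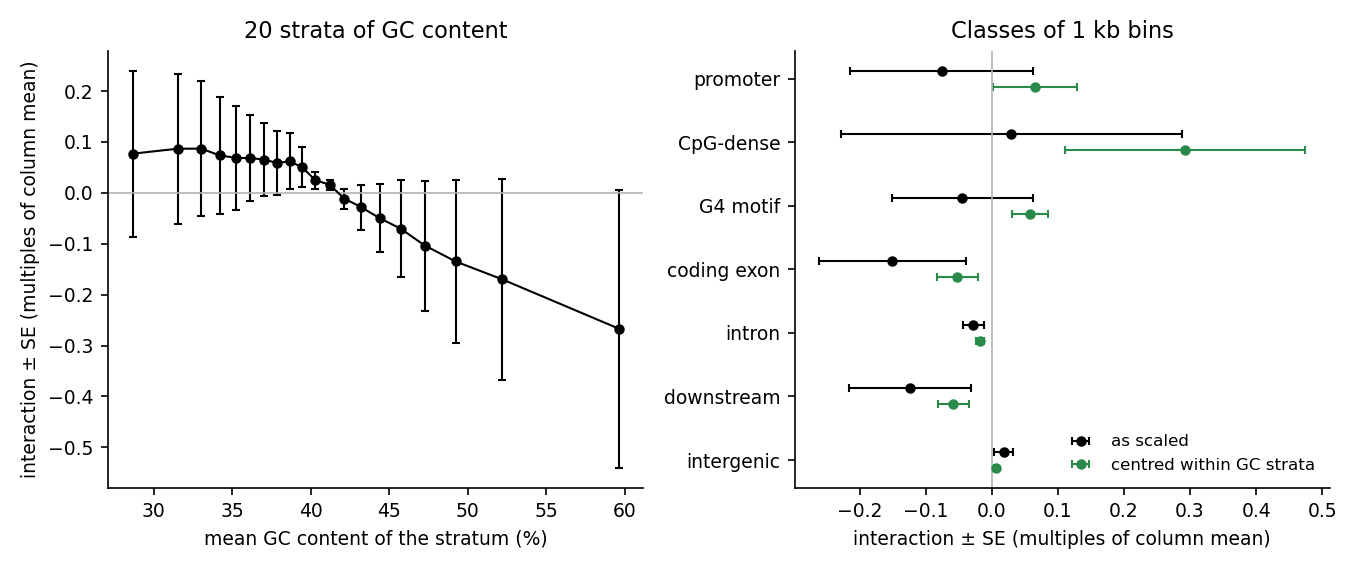
Interaction ± SE, in multiples of the column mean, in 20 strata of 1 kb bins by mean GC content (left) and in 7 classes of bins (right), where black points are values as scaled and green points are values centred within GC strata. The interaction goes from 0.0772 ± 0.163 at 28.7% GC to -0.267 ± 0.273 at 59.6% GC, and promoters and G4 bins change sign between the scalings.

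Small interactions of all windows were ordered by base composition. In the lowest of 5 equal GC groups, 68.7% of the windows were above expectation (median 0.0743), and the next groups had medians of 0.0585, 0.0204 and -0.0256. In the highest group 25% were above (median -0.147). At an unadjusted p under 0.05, the lowest group had 222 windows above and 24 below, and the highest 15 above and 311 below. Across windows, which are not independent replicates, the interaction correlated with GC with r = -0.439. The columns behind this order were uneven. The slope of the scaled value on GC was 0.0580, 0.0519 and 0.0541 per percent GC in WT, 0.0798, 0.0443 and 0.0427 in MUTYH-/, 0.0595, 0.0812 and 0.0629 in OGG1-/, and 0.0336, 0.0722 and 0.0478 in DKO. MU1 and OG2 had the steepest slopes and DKO1 the flattest, and every knockout spread more than WT. In 20 GC strata of single bins, the interaction was 0.0772 ± 0.163 (SE) in the stratum of the lowest GC content, 28.7% on average, and -0.267 ± 0.273 in that of the highest, 59.6%. The interaction of the slope, -0.0176 ± 0.0180, was no larger than its error (exact permutation p = 0.323).

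No feature class passed the exact permutation test of the interaction (7 classes, smallest adjusted p = 0.481, no unadjusted p under 0.05). Differences between genotypes widen the reference of this test, so a miss does not show additivity. Scaled values in promoters, the 1 kb before a gene start, were 1.39 ± 0.0718 in WT and 1.22 ± 0.192 in DKO, and 1.27 ± 0.118 in MUTYH-/ and 1.42 ± 0.0434 in OGG1-/ (SD, n = 3). The DKO mean was close to the expectation of 1.29, with an interaction of -0.0760 ± 0.139 that turned to 0.0651 when GC was accounted for in strata. CpG-dense bins, with a GC content of at least 55% and an observed over expected CpG ratio of at least 0.65, had 1.49 ± 0.187 in WT and 0.861 ± 0.329 in DKO, and 1.02 ± 0.205 in MUTYH-/ and 1.29 ± 0.120 in OGG1-/. DKO was again near its expectation of 0.832 (interaction 0.0291 ± 0.258, exact permutation p = 0.952), although the value turned negative on the ratio of reads. Bins with a G-quadruplex (G4) motif, 4 runs of at least 3 guanines with 1 to 7 bases between them on either strand, made up 9.71% of all bins tested. They had an interaction of -0.0450 ± 0.107, which turned to 0.0573 in GC strata. Coding exons had -0.151 ± 0.111, introns -0.0281 ± 0.0161 and intergenic bins 0.0176 ± 0.0148. Among the chromosomes, none was called, and chromosome 12 had the only unadjusted exact permutation p under 0.05 (interaction -0.0153 ± 0.00648, p = 0.0390, adjusted p = 0.584).

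Of 16985 gene bodies, none (0.0%) was called by limma. At an unadjusted p under 0.05, 278 genes (1.64%) were above the additive expectation and 609 (3.59%) below, together 5.22%. Without scaling of the columns this split was 110 above and 951 below. The median interaction was -0.0670, and 40.8% of the genes were positive. WT and DKO lay above both single knockouts in 16 genes (0.0942%) and below in 26 (0.153%). The smallest adjusted p was 0.448.

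Below expectation, the smallest p belonged to EFS, a docking protein of SRC-family kinases (chr14:23356403-23365752, 10 bins). It had 0.94, 0.65 and 0.50 in WT and 0.61, 1.22 and 0.76 in DKO. MUTYH-/ had 1.97, 1.99 and 1.39 and OGG1-/ 1.85, 1.55 and 2.18, so both single knockouts were above WT and DKO without overlap (interaction -2.09 ± 0.33, adjusted p = 0.448). MAPK11, the p38 beta kinase of stress signalling, had 0.96, 1.80 and 1.52 in WT and 0.62, 1.12 and 0.75 in DKO, and 2.11, 2.0 and 1.89 in MUTYH-/ and 1.95, 2.17 and 2.14 in OGG1-/ (interaction -1.83 ± 0.33, adjusted p = 0.614). The same order without overlap was seen in SLC22A31, RPS3A and CHPF2. RPS3A, a ribosomal protein gene, has many processed copies in the genome, so its reads are uncertain. NIP7, PLPP5, ZNF140, GNGT2 and TMEM119 completed the first 10, with interactions from -2.66 to -1.05. Scaled input, which the score subtracts, had interactions of the opposite sign in all 10, from 0.111 (ZNF140) to 0.611 (RPS3A). On the log2 ratio of OG to input reads, the interactions of the 10 stayed negative, from -1.07 (SLC22A31) to -0.348 (ZNF140). The part of input in the scores was not tested.

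Above expectation, UQCRFS1, the Rieske iron-sulfur subunit of respiratory complex III, came first (chr19:29205320-29213151, 8 bins). It had 0.73, 0.28 and 0.46 in WT and 1.19, 1.28 and 1.46 in DKO, and -0.31, -0.20 and -0.08 in MUTYH-/ and 0.91, 0.60 and 0.87 in OGG1-/. DKO was above all other columns while MUTYH-/ was below 0 throughout (interaction 1.20 ± 0.19, adjusted p = 0.448). COX7A2, a subunit of respiratory complex IV, also had DKO above all others, at 1.56, 1.82 and 1.92 against 0.262 to 1.17 (interaction 1.08 ± 0.27, adjusted p = 0.823). TRIM64B, SLAMF6, WFDC5, ZSCAN26, SOAT1, CSAG2, RAB33B and XCL1 made up the rest, with interactions from 0.67 to 2.53. TRIM64B, CSAG2 and XCL1 have near-identical copies and are uncertain for that reason. Input interactions of the genes above expectation ran from -0.217 (RAB33B) to 0.00333 (UQCRFS1), the only positive one. Their log2 ratio interactions were positive, from 0.27 (SOAT1) to 0.78 (WFDC5). None of these 20 genes passed the adjusted threshold.

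Neither targeted gene was called. OGG1 (38 bins) had 1.76 ± 0.240 in WT and 1.5 ± 0.547 in DKO, and 1.69 ± 0.258 in MUTYH-/ and 1.70 ± 0.463 in OGG1-/ (SD, n = 3), against an expectation of 1.62. Its interaction was -0.13 ± 0.45 (limma adjusted p = 0.988) and turned to 0.01 in GC strata. MUTYH (12 bins) had 0.52, 1.76 and 1.56 in WT and 1.29, 2.17 and 1.01 in DKO, and 2.62, 1.39 and 1.36 in MUTYH-/ and 1.56, 2.26 and 2.10 in OGG1-/, and its groups overlapped (interaction -0.996 ± 0.623, limma adjusted p = 0.935).

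**Figure D5:**
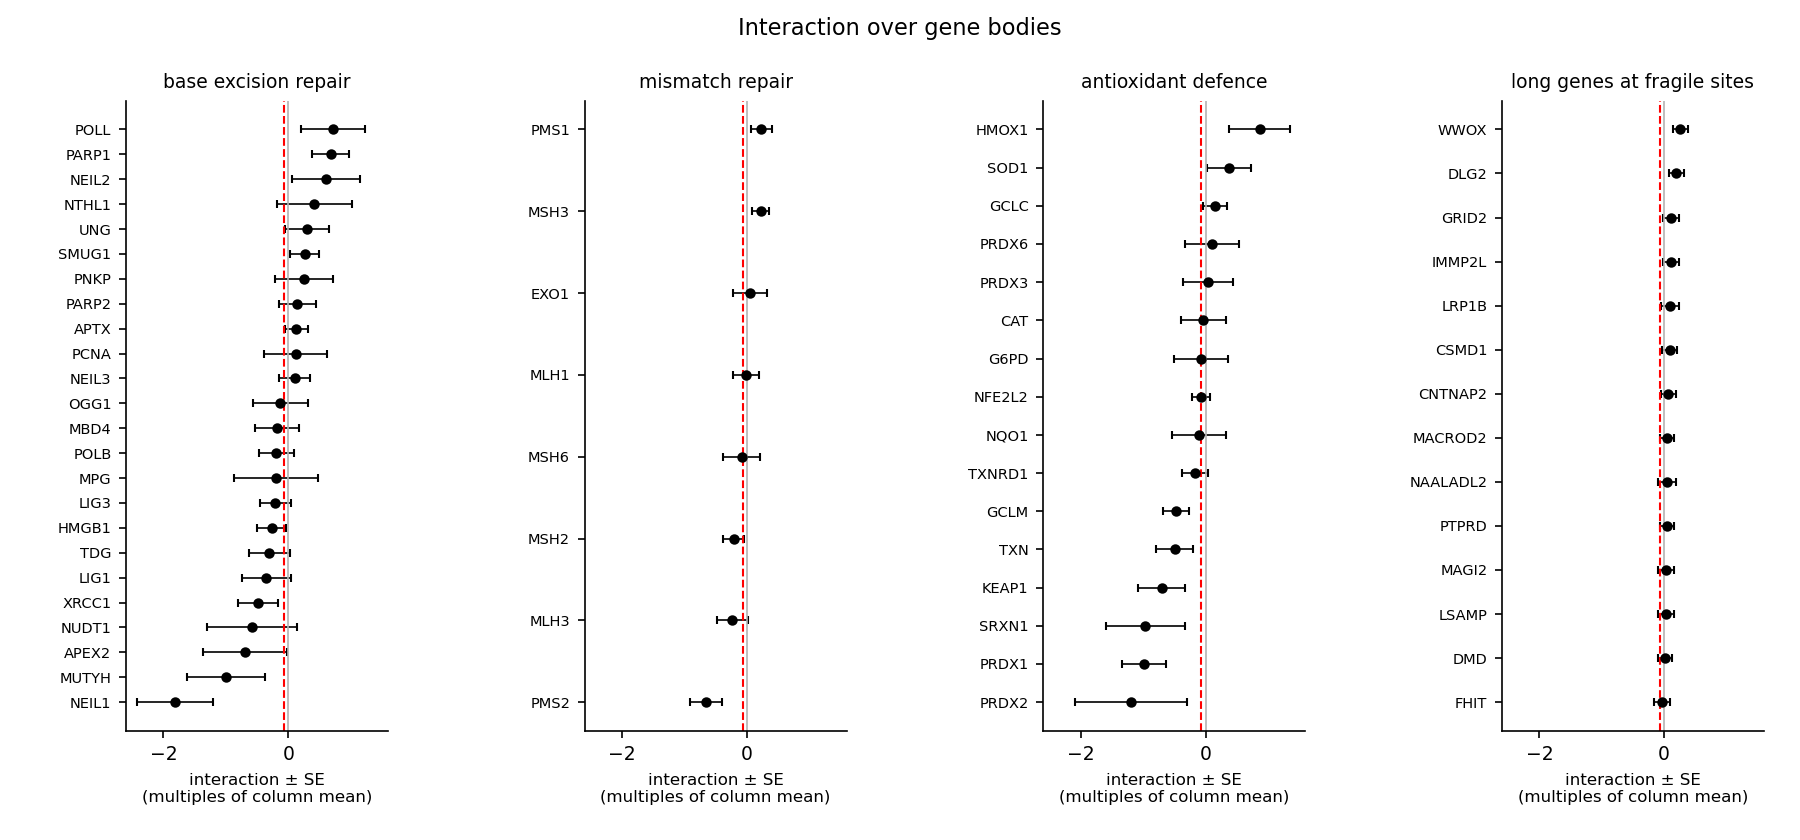
Interaction ± SE over gene bodies, in multiples of the column mean, of the measured members of 4 gene lists, with 1 point per gene, a grey line at 0 and a red dashed line at the median of all genes tested, -0.0670. The base excision repair list runs from -1.81 (NEIL1) to 0.72 (POLL), and the long genes at fragile sites from -0.04 (FHIT) to 0.26 (WWOX). NEIL1 has scaled input of 1.90 to 2.68, the highest of its list, and lies in the duplicated segment of chromosome 15.

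Base excision repair genes were spread around additivity. Of 26 listed, 24 were measured (APEX1 and FEN1 had fewer than 5 bins), 11 with a positive and 13 with a negative interaction, with a median of -0.152 against -0.0670 over all genes. None was called, and at an unadjusted p under 0.05 there was 1 above and 1 below. Each is 4.17% of the list, against 1.64% above and 3.59% below over all genes. NEIL1, a glycosylase for oxidized pyrimidines, had 3.08, 3.67 and 3.44 in WT and 3.16, 3.83 and 2.61 in DKO, and 4.60, 3.01 and 3.38 in MUTYH-/ and 4.99, 4.65 and 4.60 in OGG1-/. OGG1-/ was above WT and DKO in every column, and the DKO values lay around those of WT (interaction -1.81 ± 0.61, adjusted p = 0.910). Scaled input of NEIL1 was high throughout, at 1.90 to 2.68 over all columns, above every other measured gene of the list. NEIL1 lies in the segment of chromosome 15 known to be duplicated in HAP1. WT had the most input, with a mean of 2.53 against knockout means of 2.06 to 2.13 (input interaction 0.324). On the log2 ratio of OG to input reads, the NEIL1 interaction was -0.327. How far input or this duplication shaped the NEIL1 score was not tested. PARP1, which senses strand breaks left by repair, had 2.03, 1.65 and 1.72 in WT and 1.30, 1.24 and 1.55 in DKO, and 1.17, 1.30 and 0.71 in MUTYH-/ and 1.48, 1.69 and 1.12 in OGG1-/. All PARP1 values in MUTYH-/ and DKO were below those of WT (interaction 0.68 ± 0.29, adjusted p = 0.935). NTHL1, another glycosylase for oxidized pyrimidines, had an interaction of 0.42 ± 0.60. NUDT1, which removes oxidized guanine from the nucleotide pool, had -0.58 ± 0.73, and XRCC1, a scaffold of single-strand break repair, had -0.49 ± 0.32.

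Mismatch repair genes were all measured (8 of 8), 3 positive and 5 negative, with a median of -0.0479. None was called, and only PMS2, a MutL endonuclease subunit with a closely related pseudogene, had an unadjusted p under 0.05. That is 12.5% of the list below expectation, against 3.59% of all genes. PMS2 had 1.4, 0.93 and 1.26 in WT and between 1.51 and 1.92 in every knockout column (interaction -0.65 ± 0.25, adjusted p = 0.935). Every knockout column was above the WT columns, and DKO, at 1.56 to 1.66, lay within the range of the single knockouts.

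Genes of antioxidant defence were measured for 16 of 20, without SOD2, GPX1, GPX4 and PRDX5. There were 5 positive and 11 negative interactions, with a median of -0.0876. None was called, and 2 were below expectation at an unadjusted p under 0.05 (12.5%, against 3.59% of all genes). None was above at that level, against 1.64% of all genes. PRDX1, a peroxiredoxin, had 1.6, 1.38 and 1.03 in WT and 1.20, 1.37 and 1.07 in DKO, and 2.02, 1.53 and 1.33 in MUTYH-/ and 2.35, 1.70 and 1.66 in OGG1-/ (interaction -0.98 ± 0.35, adjusted p = 0.935). GCLM, the modifier subunit of the enzyme that begins glutathione synthesis, had an interaction of -0.47 ± 0.21. HMOX1, heme oxygenase, had the highest value of the list, 0.87 ± 0.50.

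Long genes at fragile sites were all measured (14 of 14), and 13 (92.9%) had a positive interaction, against 40.8% of all genes. Their median was 0.0596. None was called and none had an unadjusted p under 0.05. The values were small, from -0.04 ± 0.13 for FHIT to 0.20 ± 0.12 for DLG2 and 0.26 ± 0.12 for WWOX. The count depended on the scaling, with 8 of 14 positive in GC strata and 5 of 14 without scaling. Of all 16985 genes, 7679 and 3961 were positive in these settings. The count stayed at 13 with median scaling, on the ratio of reads and on a log2 scale. The medians in GC strata were 0.0274 for base excision repair, -0.0226 for mismatch repair, -0.0725 for antioxidant defence and 0.0154 for the long genes, against -0.0318 for all genes tested. The sign of the base excision repair median thus turned with the GC correction.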

How the data were processed

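OG-seq was measured in HAP1 cells, and the values used here were the deposited scores of 1 kb bins. The authors trimmed adapters with cutadapt 2.8, mapped reads to GRCh38 with Bowtie2 2.3.5.1, handled alignments with SAMtools and counted reads with bedtools, per the submitters' processing notes and the study's methods. The authors subtracted input from OG counts after bringing input to the OG level with a factor (signal extraction scaling) estimated in unenriched parts of the genome, so a deposited score can be negative. The authors' edgeR 3.42.4 test in R 4.2.2 was not repeated, because these values are no counts. No column of another series was found (0 columns).

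Each column was divided by its mean over all bins. Windows of 100 kb (at least 50 bins) and gene bodies (at least 5 bins) took the mean of their bins. The interaction was fitted with limma 3.58.1 in R 4.3.3 (lmFit, eBayes with a trend, 3 columns per genotype, 8 residual degrees of freedom) and Benjamini-Hochberg adjustment over all features, called at an adjusted p under 0.05. Single values were compared by two-sided exact permutation tests over 924 equivalent assignments, with all columns exchangeable under the null. Python 3.11.15 with numpy 2.4.6, pandas 2.3.3 and numba 0.67.0 was used for the rest. Whole-number reads, of OG and of 2 runs of input, were recovered from the scores in all but at most 8 bins per column. The fits were tested on simulated data with 200 changed features and independent normal errors. Errors shared between columns or neighbouring windows were not simulated, so the shares found may differ in the real columns. Depth allowed 21.0 to 40.2 OG reads per bin, so counting error is large in single bins.

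Named features were the 10 windows and 10 genes with the smallest p in each direction, the 5 bins in each direction, OGG1, MUTYH and 4 gene lists, of which 1 bin is not reported here. The members and lists were chosen with earlier results of these data known. The part of chromosome 6 that was left out belongs to the rule of the comparison, and the fit was also made with it. Alternatives changed the scale (log2 with a pseudocount of 0.1 and values below 0 set to 0, which asks about multiplicative rather than additive effects; log2 ratio of OG to input reads with 0.01 added to each), the scaling, the filter, the trend, GC correction in 20 strata, column weights, the window grid and the columns used. Those on even input and on bins with a mean scaled value above 5 were chosen after seeing the data.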

Additional observations from a re-analysis of the deposited data

Results flagged for a closer look

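The 3 windows of 100 kb called by the test of the interaction itself (limma) need a closer look. Whether they reflect an effect of losing the glycosylases was not tested. They were the WWOX window on chromosome 16 with an interaction of 1.1, the window of TP53TG3E and TP53TG3B with -1.48, and the window of MADCAM1, TPGS1, CDC34, GZMM, BSG and HCN2 on chromosome 19 with -1.97. In the WWOX and chromosome 19 windows, input reads moved with the OG signal in the columns that stood apart, and in the TP53TG3 window 4 adjacent bins carried the value.

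Input reads enter the comparison only through the score, which subtracts them. Tested on their own with limma, they had an interaction in 54 windows (0.197% of 27364, 27 higher and 27 lower). In this test, 12% of the windows had an unadjusted p under 0.05. Scaled input of chromosome 20 was 0.0796 ± 0.0120 (SE) higher in DKO than the single knockouts add up to (exact permutation p = 0.0238, adjusted p = 0.183), and that of chromosome X was 0.0526 lower (interaction -0.0526 ± 0.0145, exact permutation p = 0.00216, the smallest it can give, adjusted p = 0.0498). The OG signal of these chromosomes had interactions of 0.0368 ± 0.0635 and -0.0338 ± 0.0379.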

How the results depend on the processing

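On a log2 scale, 13 bins and 0 windows were called, and without the variance trend 1 bin and 0 windows. The windows called were also 0 on the ratio of reads and 0 in windows of 1 Mb, and 1 with even input. Median scaling, no scaling, a filter on low values and chromosome 6 kept gave 3 windows, GC strata and column weights 4, a shifted grid 2 (none above expectation, so without the WWOX call) and leaving out bins with a mean above 5 gave 2. Leaving out each column in turn gave 0 to 1 called bins (1 without WT2), 0 to 12 windows (0 without WT3 or without DKO1, 12 without MU3, 6 without DKO2), 0 genes throughout, and 0 to 1 chromosomes (chromosome 12 without WT1). Genes stayed at 0 calls under every alternative run. The interaction of the column mean ran from -1.42 to -0.495 without single columns and was 0.0201 per OG read. Signs turned in 3 classes. Promoters gave 0.0651 in GC strata and -0.158 to 0.0293 without single columns, CpG-dense bins -0.184 on the ratio of reads and -0.108 to 0.212, and G4 bins 0.0573 in GC strata and -0.117 to 0.0252. The WWOX window gave -0.0267 ± 0.179 (SE) on the ratio of reads, where 4 columns have very few reads, and the OGG1 gene 0.00517 in GC strata and -0.413 to 0.131 without single columns. The cause was not tested.

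With a replicate block on the column number, 3 windows, 0 bins and 0 genes were called. The names of the columns share only a number. Of 18 pairs with the same number, 4 had deviations correlated above 0.1 (range -0.416 to 0.346), and 3 of 12 columns correlated best with their own number. Pairs with different numbers ranged from -0.299 (MU3 and OG2) to 0.395 (MU1 and OG2) and 0.467 (MU1 and DKO2). The block on the number does not take up what such pairs share. At 21.0 to 40.2 OG reads per bin, the median SE of a bin was 1.47 scaled units, and each genotype had 2 clones.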
